A study of Mus musculus with 10 samples.

Results

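The canonical Wnt pathway was followed through 10 of its core genes in RNA from mouse ileal crypts: the receptors Fzd5 and Fzd7, the co-receptors Lrp5 and Lrp6, the destruction complex genes Axin1, Apc and Gsk3b, the β-catenin gene Ctnnb1, and the nuclear factors Tcf7 and Tcf7l2. The genes were taken by name, through the Ensembl ID of each symbol. They were chosen with earlier results of these data known. All 10 were found among the 28987 IDs measured and all 10 passed the filter on low values, as did 13056 genes in all. Crypts are the pits of the small intestine in which stem cells, dividing progenitors and Paneth cells lie.

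The study compared 3 genotypes on a C57Bl6 background. The 3 control libraries (Ctrl) came from VilCreER;Stat5 (STAT5+/+) mice, the 2 knockout libraries (KO) from VilCreER;Stat5 (STAT5IEC-/-) mice and the 5 overexpression libraries (OE) from VilCreER;icS5 (STAT5IEC+++) mice. The Cre recombinase in every group is driven by the Villin promoter, which is active in the intestinal epithelium, so that the alleles act in epithelial cells and not in the other cells of the gut wall. Its ER part makes Cre depend on tamoxifen, and the labels do not say how or when it was given. The allele icS5 is not spelled out, and no control of that line is analysed here, so the effect of Stat5 in OE cannot be told apart from a difference between the mouse lines. Every mouse is labelled male and 12 weeks old. Tissue was shaken in PBS with 10 mM EDTA at 37 C for 30 min to free the crypts, and total RNA was sequenced single-end. Nothing in the labels ties a library to an animal of its own, so the tests measure the spread between these samples, which may be technical.

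Wnt ligands bind a Frizzled receptor together with LRP5 or LRP6. Without ligand, AXIN1 and APC hold β-catenin for phosphorylation by casein kinase and GSK3β, and the marked protein is degraded. With ligand, the co-receptor draws AXIN to the membrane, β-catenin accumulates, enters the nucleus and acts with TCF/LEF factors on its target genes. In the intestine this pathway keeps crypt stem cells dividing, and it also drives the maturation of Paneth cells. AXIN2, a relative of AXIN1, is itself a target gene.

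Values are TPM, the deposited measure of transcript abundance, divided by a factor for each library, the median ratio of its genes to the other libraries, and are called scaled TPM. TPM is a share of all transcripts per gene length, so levels of different genes can be compared, but the depth behind each value is unknown, so values carry no counting interval. In bulk tissue, fewer cells of a type and less RNA per cell cannot be told apart.

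Some libraries stood apart. In Ctrl 2, transcripts encoded in mitochondria took 83.7% of TPM against 43.3% to 57.0% elsewhere, its scaling factor was 0.295 against 0.831 to 1.31, and it had 8263 genes at 1 TPM or more against 11050 to 11932. Its summed level of 10 Paneth cell markers was 422 scaled TPM, with 3 of them at 0, against 3721 to 19140 in the other libraries, and its 12 enterocyte markers summed to 15601 against 1575 to 9652. Its 9 crypt stem cell markers summed to 83.7, the lowest of all libraries, against 118 to 604. In the library labelled OE 1, Stat5a was at 1.56 and Stat5b at 1.49 scaled TPM. Both lay inside the Ctrl ranges, 1.07 to 2.60 and 0.970 to 1.76. The upper end for Stat5a was Ctrl 2, against 1.51 in Ctrl 1. Stat5a in OE 2, at 2.10, also lay in that range, while OE 3 to OE 5 ran from 2.81 to 3.55. Stat5b ran from 2.65 to 5.53 in OE 2 to OE 5. Every direction given for OE thus includes a library with both Stat5 genes inside the Ctrl ranges. The labels do not say what RNA level icS5 should give. In KO, Stat5a was at 0.637 and 0.336 and Stat5b at 0.482 and 0.430. The library labelled OE 1 also stood apart in cell markers. Its enterocyte markers, at 9652, and crypt stem cell markers, at 118, came next after Ctrl 2. Its fibroblast and smooth muscle markers, at 109, and macrophage and dendritic cell markers, at 300, were the highest of all libraries. The part of cell make-up in the OE values was not tested. Ctrl 3, OE 3 and OE 4 held few Y-linked transcripts, a sum over 4 genes of 3.45, 0.250 and 0.140 TPM against 32.3 to 131 in the others, although every mouse is labelled male.

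No gene passed an adjusted p of 0.05 in limma in any of the 3 comparisons, so 0.0% of the 13056 genes tested were called in each direction of each. At an unadjusted limma p under 0.05 there were 452 genes (3.46%) in KO against Ctrl, 797 (6.1%) in OE against Ctrl and 385 (2.95%) in OE against KO. Robust limma and limma with library weights also called 0 genes. Of the 10 Wnt genes, 0, 2 and 1 had an unadjusted limma p under 0.05 in these comparisons: Axin1 and Tcf7 in OE against Ctrl, and Lrp6 in OE against KO. The differences given for the Wnt genes therefore did not pass the threshold.

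**Figure D1:**
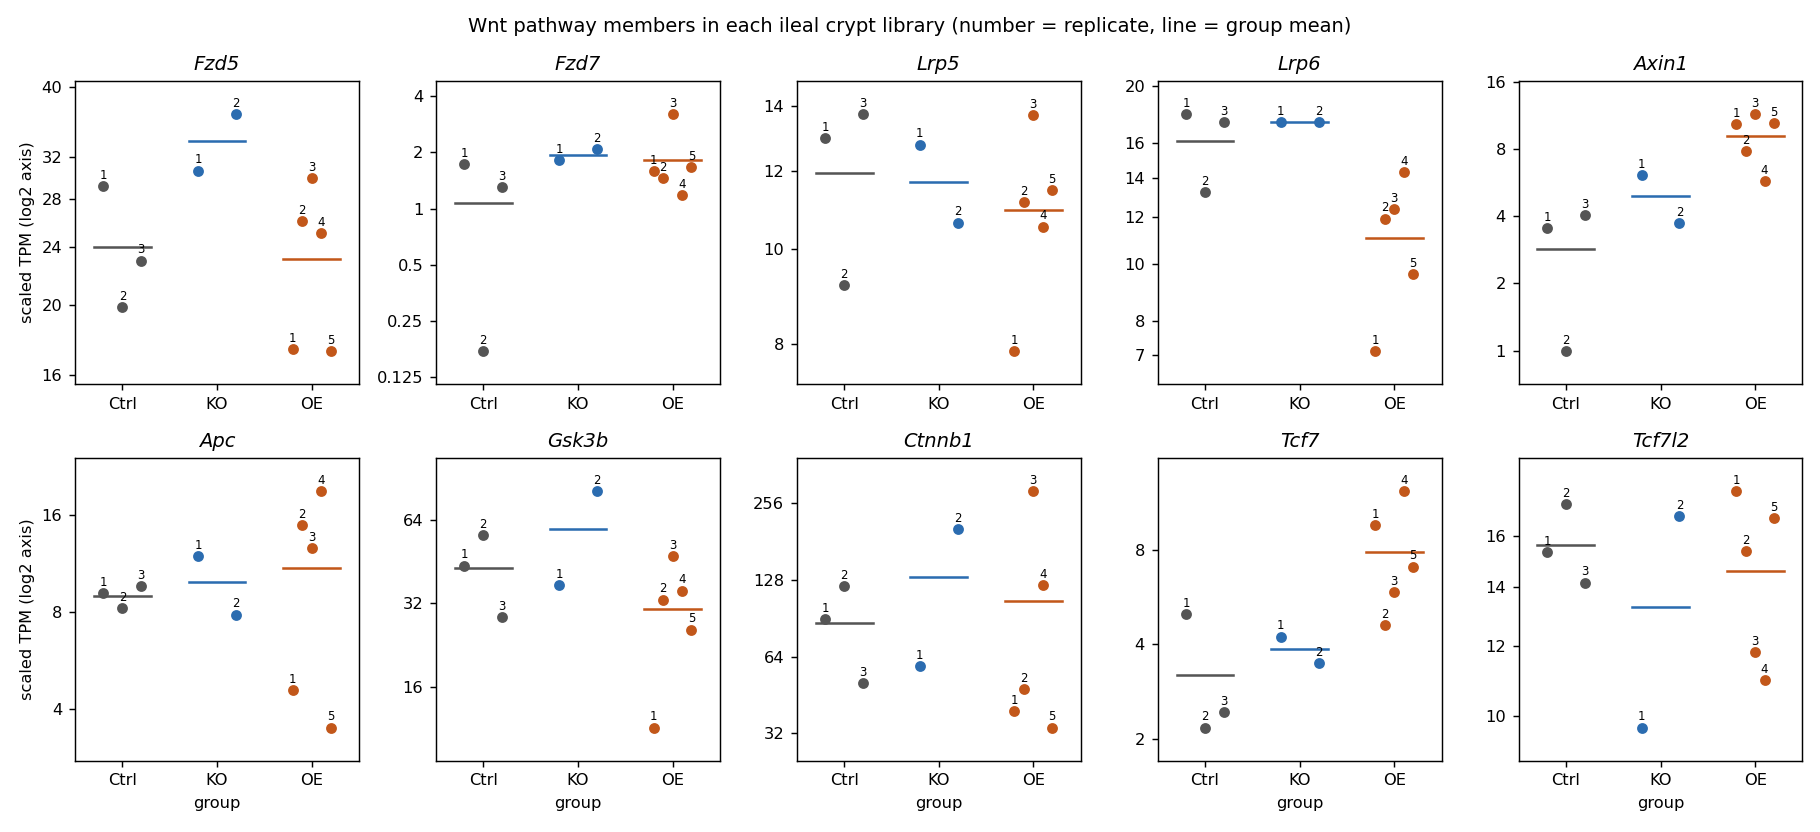
Scaled TPM of each of the 10 Wnt genes (log2 axis, a range of its own for each gene) in Ctrl, KO and OE libraries; each point is a library with its replicate number and each line a group mean. All 5 OE libraries of Axin1 lie above all 3 Ctrl libraries, whereas Apc and Ctnnb1 spread more widely within OE than their group means differ.

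Ordered by mean level over the 10 libraries, Ctnnb1 was the most abundant at 105 scaled TPM, followed by Gsk3b at 40.0, Fzd5 at 25.5, Tcf7l2 at 14.6, Lrp6 at 13.9, Lrp5 at 11.4, Apc at 10.2, Axin1 at 6.41, Tcf7 at 5.69 and Fzd7 at 1.62. The order was the same in TPM as deposited. Neighbours in this order were not separated: the ranges over libraries of every neighbouring pair overlapped. Within a library the order was firmer for some pairs. Ctnnb1 exceeded Gsk3b in 10 of 10 libraries and Tcf7 exceeded Fzd7 in 10 of 10, while Tcf7l2 exceeded Lrp6 in 4 of 10.

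The members also differed in how steady they were within a group. The within-group SD of log2(scaled TPM + 1) was 1.14 for Ctnnb1, larger than in 95.2% of 7332 protein-coding genes with a mean of at least 5 scaled TPM, for which the median SD was 0.43. Apc at 0.75 and Gsk3b at 0.68 also varied more than most of these genes. Lrp5 at 0.26, Lrp6 at 0.30, Tcf7l2 at 0.31 and Fzd5 at 0.31 varied less than the median gene. This spread sets what the comparisons could show: the 95% interval for Ctnnb1 in KO against Ctrl ran from -1.54 to 2.37, and that for Lrp5 from -0.66 to 0.63.

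Starting at the cell surface, Fzd5 (ENSMUSG00000045005, chromosome 1, 64730558 to 64737751 in mm10) is the main Frizzled receptor of these libraries and is known for its part in Paneth cell maturation. Fzd5 was at 29.1, 19.8 and 23.0 scaled TPM in Ctrl 1, 2 and 3, then 30.6 and 36.6 in KO 1 and 2, and 17.4, 26.1, 29.9, 25.1 and 17.3 across OE 1 to 5. Both KO libraries lay above every Ctrl library and above every OE library, and Ctrl and OE overlapped. KO and OE overlapped when TPM were rescaled after mitochondrial transcripts were removed, with OE 3 at 78.7 and KO 1 at 75.0. The group mean was 24.0 ± 4.73 for Ctrl (SD, n = 3), 33.6 ± 4.25 for KO (SD, n = 2) and 23.1 ± 5.62 for OE (SD, n = 5). The log2 difference was 0.48 (95% interval -0.20 to 1.16) in KO against Ctrl, with a limma adjusted p of 0.943 and an exact permutation p of 0.2. In OE against KO it was -0.55 (-1.17 to 0.07), with a limma adjusted p of 1 and an exact permutation p of 0.0952. OE and Ctrl differed by -0.07 (-0.61 to 0.48).

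Fzd7 (ENSMUSG00000041075, chromosome 1, 59482424 to 59486955) encodes the Frizzled receptor tied to crypt stem cells and was the lowest of the 10 genes. It was at 1.73, 0.173 and 1.31 scaled TPM in Ctrl 1, 2 and 3, then 1.81 and 2.08 in KO 1 and 2, and 1.58, 1.45, 3.20, 1.18 and 1.66 across OE 1 to 5. Both KO libraries lay above every Ctrl library, and the low Ctrl mean of 1.07 ± 0.806 (SD, n = 3) rested on Ctrl 2. The log2 difference in KO against Ctrl was 0.59 (-0.34 to 1.52), with a limma adjusted p of 0.943 and an exact permutation p of 0.2, and it was 0.23 without Ctrl 2. For OE against Ctrl it was 0.49 (-0.25 to 1.24), and 0.13 without Ctrl 2.

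Within the 10 Frizzled genes, Fzd5 held most of the transcripts in every library. Its share of the summed Frizzled TPM ran from 78.3% in Ctrl 3 to 88.7% in OE 2, and that of Fzd7 from 0.717% in Ctrl 2 to 8.73% in OE 3. Such a share is formed inside a library and does not depend on the scaling between libraries. The mean share of Fzd5 was 82.4% ± 4.16 for Ctrl (SD, n = 3), 87.1% ± 1.88 for KO (SD, n = 2) and 84.1% ± 3.29 for OE (SD, n = 5), and the groups overlapped in every comparison.

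Lrp5 (ENSMUSG00000024913, chromosome 19, 3584828 to 3686564) and Lrp6 (ENSMUSG00000030201, chromosome 6, 134446476 to 134566965) encode the co-receptors. Lrp6 was at 17.9, 13.2 and 17.4 scaled TPM in Ctrl 1, 2 and 3, then 17.4 in each of KO 1 and KO 2, and 7.12, 11.9, 12.4, 14.3 and 9.59 across OE 1 to 5. The 5 OE libraries lay below both KO libraries and below Ctrl 1 and Ctrl 3, and only Ctrl 2 reached into their range. The group mean was 16.2 ± 2.58 for Ctrl (SD, n = 3), 17.4 ± 0.0280 for KO (SD, n = 2) and 11.1 ± 2.77 for OE (SD, n = 5). In OE against KO the log2 difference was -0.64 (-1.26 to -0.02), with an unadjusted limma p of 0.0443, a limma adjusted p of 1 and an exact permutation p of 0.0952. In OE against Ctrl it was -0.53 (-1.07 to 0.01), with a limma adjusted p of 0.755 and an exact permutation p of 0.0714. In KO against Ctrl it was 0.11 (-0.57 to 0.79).

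The OE against Ctrl difference of Lrp6 depended on how Ctrl 2 was scaled. In TPM as deposited Lrp6 was at 21.9, 3.89 and 22.7 in Ctrl 1, 2 and 3, then 21.0 and 18.2 in KO 1 and 2, and 5.92, 15.6, 14.5, 17.0 and 10.7 across OE 1 to 5. On that scale the log2 difference in OE against Ctrl was -0.09, where the median of all genes tested was 0.36 and not the 0.021 of scaled values. Without Ctrl 2 it was -0.66 in scaled values, and the OE libraries lay below both remaining Ctrl libraries on both scales. Over all genes tested without Ctrl 2, OE lay wholly below Ctrl for 3.51% in scaled TPM and 6.11% in TPM as deposited. Without the library labelled OE 1, the difference in scaled values was -0.40.

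The groups of Lrp5 overlapped in all 3 comparisons. It was at 13.0, 9.19 and 13.7 scaled TPM in Ctrl 1, 2 and 3, then 12.8 and 10.6 in KO 1 and 2, and 7.87, 11.2, 13.7, 10.5 and 11.5 across OE 1 to 5. The log2 differences were -0.02 (-0.66 to 0.63) in KO against Ctrl, -0.12 (-0.63 to 0.39) in OE against Ctrl and -0.10 (-0.69 to 0.48) in OE against KO. The share of Lrp6 in the sum of both co-receptors gives the contrast between them within a library. It was 58.0%, 59.0% and 55.9% in Ctrl 1, 2 and 3, then 57.6% and 62.0% in KO 1 and 2, and 47.5%, 51.7%, 47.5%, 57.6% and 45.5% across OE 1 to 5. Every OE library had a lower share than both KO libraries, by little for OE 4, which like KO 1 rounds to 57.6%, and OE 4 alone reached into the Ctrl range. The difference was -9.87 percentage points in OE against KO, with an exact permutation p of 0.0476, the smallest that 21 splits allow, and 0.286 after adjustment over the 24 exact permutation tests of shares. Between OE and Ctrl it was -7.67 points, with an exact permutation p of 0.0536, or 0.286 adjusted. Ctrl 2 did not stand apart in this share.

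Inside the cell, Axin1 (ENSMUSG00000024182, chromosome 17, 26138688 to 26195811) encodes the scaffold of the destruction complex, the component usually taken as limiting for its assembly. Axin1 was at 3.52, 0.995 and 4.05 scaled TPM in Ctrl 1, 2 and 3, then 6.10 and 3.72 in KO 1 and 2, and 10.3, 7.84, 11.4, 5.71 and 10.5 across OE 1 to 5. Every OE library lay above every Ctrl library, KO 1 lay above OE 4, and KO 2 lay inside the Ctrl range. The group mean was 2.86 ± 1.63 for Ctrl (SD, n = 3), 4.91 ± 1.68 for KO (SD, n = 2) and 9.15 ± 2.33 for OE (SD, n = 5). The log2 difference in OE against Ctrl was 1.47 (0.69 to 2.26), with an unadjusted limma p of 0.0018, the 17th smallest of 13056, and a limma adjusted p of 0.755. The exact permutation p was 0.0357, or 0.408 after adjustment over the 30 exact permutation tests of the members, where 0.0179 is the smallest that 56 splits allow. In KO against Ctrl the difference was 0.70 (-0.28 to 1.68) and in OE against KO 0.78 (-0.12 to 1.67).

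Of the 10 genes, Axin1 alone had OE and Ctrl libraries that did not overlap in scaled TPM. Over all genes tested, OE lay wholly above Ctrl for 2.21% in scaled TPM, and for 1.15% on both the scaled and the deposited scale, as Axin1 did. In TPM as deposited Axin1 was at 4.30, 0.293 and 5.29 in Ctrl 1, 2 and 3, then 7.37 and 3.90 in KO 1 and 2, and 8.55, 10.2, 13.4, 6.77 and 11.7 across OE 1 to 5. The separation stood on this scale too, and when TPM were rescaled after mitochondrial transcripts were removed, where OE ran from 15.2 to 30.1 and Ctrl from 1.80 to 9.84. Without Ctrl 2 the log2 difference was 1.05, and the OE libraries still lay above Ctrl 1 and Ctrl 3 on the scaled and the deposited scale. Without Ctrl 2, such a separation held for 3.79% of all genes tested in scaled TPM and 1.94% in TPM as deposited. Without the library labelled OE 1 it was 1.42, and without Ctrl 2 and that library 1.00. When Ctrl 3, OE 3 and OE 4, the libraries low in Y-linked transcripts, were left out, it was 1.80. In KO against Ctrl the difference without Ctrl 2 was 0.28.

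**Figure D2:**
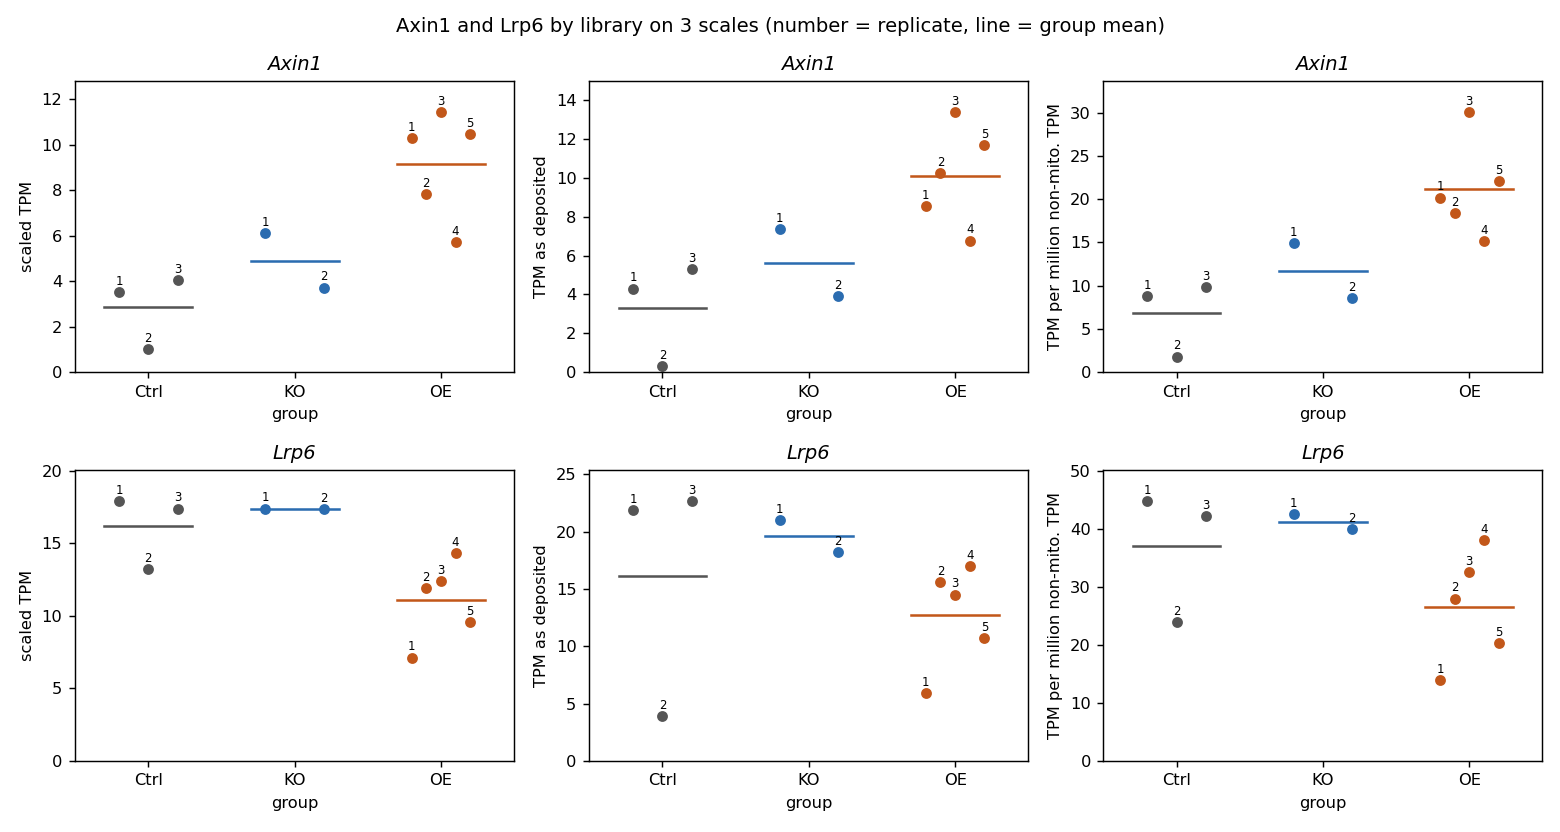
Axin1 (top) and Lrp6 (bottom) in each library as scaled TPM, as deposited TPM and as TPM rescaled after removal of mitochondrial transcripts (linear axes from 0); points are libraries with their replicate number and lines group means. On each scale the OE libraries of Axin1 lie above all Ctrl libraries, while the place of Lrp6 in Ctrl 2 moves from 13.2 in scaled TPM to 3.89 as deposited.

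Its relative Axin2 overlapped between OE and Ctrl. Axin2 was at 16.4, 17.6 and 19.4 scaled TPM in Ctrl 1, 2 and 3, then 12.2 and 14.6 in KO 1 and 2, and 23.3, 11.6, 23.6, 7.86 and 9.98 across OE 1 to 5. The share of Axin1 in the sum of both was 17.7%, 5.34% and 17.2% in Ctrl 1, 2 and 3, then 33.3% and 20.3% in KO 1 and 2, and 30.6%, 40.3%, 32.6%, 42.1% and 51.2% across OE 1 to 5. Every OE and every KO library had a higher share than every Ctrl library, while OE and KO overlapped. Both genes enter this share. Both KO libraries lay below every Ctrl library for Axin2, while Axin1 in KO 2, at 3.72 scaled TPM, lay inside the Ctrl range. The OE libraries with Axin2 below every Ctrl library had the highest shares in OE. In the other OE libraries Axin2 lay above every Ctrl library. The part of each gene in the share differences was not tested. The share was 39.4% ± 8.22 in OE (SD, n = 5) against 13.4% ± 7.02 in Ctrl (SD, n = 3), a difference of 25.9 points with an exact permutation p of 0.0179, the smallest possible, and 0.286 after adjustment. In KO it was 26.8% ± 9.17 (SD, n = 2), 13.4 points above Ctrl, with an exact permutation p of 0.1, the smallest that 10 splits allow, and 0.321 adjusted. Without Ctrl 2 the share still differed by 21.9 points between OE and Ctrl, and by 9.33 points between KO and Ctrl.

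Apc (ENSMUSG00000005871, chromosome 18, 34220924 to 34322552) encodes the scaffold whose loss starts most colorectal tumours. In scaled TPM it was steady in Ctrl and spread widely in OE. It was at 9.14, 8.21 and 9.64 scaled TPM in Ctrl 1, 2 and 3, then 12.0 and 7.85 in KO 1 and 2, and 4.58, 15.0, 12.7, 19.1 and 3.49 across OE 1 to 5. Within OE, the library labelled OE 1 and OE 5 lay below every Ctrl library and OE 2, OE 3 and OE 4 above every Ctrl library. The log2 difference of 0.03 (-1.03 to 1.09) in OE against Ctrl thus averages libraries on both sides, and it was -0.39 without the 3 libraries low in Y-linked transcripts. In KO against Ctrl it was 0.10 (-1.23 to 1.43), and -0.17 without KO 1. Apc held 92.6% to 100% of the sum of Apc and Apc2, with the lowest share in Ctrl 2.

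Gsk3b (ENSMUSG00000022812, chromosome 16, 38089001 to 38246084) encodes the kinase that marks β-catenin. It was at 43.7, 56.2 and 28.6 scaled TPM in Ctrl 1, 2 and 3, then 37.3 and 81.2 in KO 1 and 2, and 11.4, 33.0, 47.1, 35.5 and 25.7 across OE 1 to 5. The groups overlapped, with KO 2 the highest of all libraries and the library labelled OE 1 the lowest. The log2 difference in OE against KO was -0.96 (-2.08 to 0.16), with a limma adjusted p of 1 and an exact permutation p of 0.0952. It was -0.41 without KO 2 and -1.51 without KO 1, so its size depended on which KO library was used. In KO against Ctrl it was 0.41 (-0.81 to 1.63), and -0.14 without KO 2. Between OE and Ctrl it was -0.55 (-1.53 to 0.42), and -0.25 without the library labelled OE 1.

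The other kinase gene, Gsk3a, was the smaller contributor in every library but the library labelled OE 1. The share of Gsk3b in the sum of both was 84.6%, 75.1% and 71.8% in Ctrl 1, 2 and 3, then 84.5% and 93.5% in KO 1 and 2, and 46.7%, 80.1%, 77.1%, 78.8% and 74.7% across OE 1 to 5. Both KO libraries lay above every OE library, and Ctrl 1 lay above KO 1. The difference in OE against KO was -17.5 points, with an exact permutation p of 0.238, and -11.3 points without the library labelled OE 1. Gsk3b itself overlapped between KO and OE. Gsk3a, at 6.84 and 5.68 scaled TPM in KO 1 and 2, lay below every Ctrl and OE library. The lowest of those were Ctrl 1 at 7.95 and OE 2 at 8.19. In TPM as deposited Ctrl 2, at 5.48, lay below both KO libraries. The log2 difference of Gsk3a was 0.66 (-0.08 to 1.41) in OE against KO. The part of each gene in the share difference was not tested.

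Ctnnb1 (ENSMUSG00000006932, chromosome 9, 120929216 to 120960507) encodes β-catenin, the messenger of the pathway and also a part of cell junctions. Ctnnb1 was at 89.8, 121 and 50.4 scaled TPM in Ctrl 1, 2 and 3, then 58.8 and 204 in KO 1 and 2, and 38.9, 47.6, 287, 122 and 33.6 across OE 1 to 5. The highest OE library, OE 3, was 8.54 times the lowest, OE 5, and both lay outside the Ctrl range. The log2 differences were 0.42 (-1.54 to 2.37) in KO against Ctrl, -0.14 (-1.71 to 1.42) in OE against Ctrl and -0.56 (-2.35 to 1.23) in OE against KO, with limma adjusted p of 0.955, 0.971 and 1. The sign turned with single libraries: KO against Ctrl was -0.47 without KO 2 and 1.30 without KO 1, and OE against Ctrl was -0.63 without OE 3 and above 0, at most 0.13, without Ctrl 2, the library labelled OE 1, OE 2 or OE 5.

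Gsk3b and Ctnnb1 varied together over the 10 libraries, at r = 0.76. To show the start sites of this pair and of the steadier Tcf7l2 beside them, the 250 bases upstream of the first RefSeq start of Ctnnb1, Gsk3b and Tcf7l2 are given 5′ to 3′ in lower case, with capitals marking CCAAT or its reverse complement ATTGG (RefSeq, GRCm38.p6, plus strand). They lie at chr9:120933150-120933399, chr16:38088751-38089000 and chr19:55741560-55741809.
Ctnnb1: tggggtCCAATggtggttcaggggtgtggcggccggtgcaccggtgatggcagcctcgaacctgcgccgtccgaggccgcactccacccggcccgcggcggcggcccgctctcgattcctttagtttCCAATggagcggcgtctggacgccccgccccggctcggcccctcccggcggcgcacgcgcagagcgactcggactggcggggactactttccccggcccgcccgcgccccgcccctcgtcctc
Gsk3b: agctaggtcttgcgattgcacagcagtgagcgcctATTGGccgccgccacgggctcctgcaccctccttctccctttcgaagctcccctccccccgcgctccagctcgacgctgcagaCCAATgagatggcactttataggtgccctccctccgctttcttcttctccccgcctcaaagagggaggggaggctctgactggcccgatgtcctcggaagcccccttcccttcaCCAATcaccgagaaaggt
Tcf7l2: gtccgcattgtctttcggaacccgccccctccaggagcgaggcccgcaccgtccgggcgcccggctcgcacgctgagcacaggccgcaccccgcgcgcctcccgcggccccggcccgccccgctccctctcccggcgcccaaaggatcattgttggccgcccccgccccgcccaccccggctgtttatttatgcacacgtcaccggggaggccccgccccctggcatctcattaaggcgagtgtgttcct
CCAAT was searched after the values were seen. In these stretches Ctnnb1 holds 2 such boxes, Gsk3b 3 and Tcf7l2 0, and their GC content is 74.8%, 62.0% and 72.8%.

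Promoter windows of 300 bases, from 250 before to 50 after a start, were at hand for 6 of the 10 genes in 9 windows. A CCAAT or ATTGG was in 4 of the 9, against 37.4% of 32851 promoters. These were the first window of Ctnnb1 and those of Gsk3b, Fzd5 and Fzd7, while the second window of Ctnnb1 held 0. The core TTCNNNGAA, which STAT factors bind and which reads alike on both strands, was in 0 of the 9, against 8.30% of all promoters. The core CTTTGAT of TCF/LEF factors, or ATCAAAG on the other strand, was in 0 of the 9, against 3.73%. These are matches of letters in these windows and say nothing about binding of a factor. Promoters of Axin1, Apc, Lrp5 and Lrp6 were not used here.

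In the nucleus, Tcf7l2 (ENSMUSG00000024985, chromosome 19, 55741820 to 55933654) is the TCF factor best known from crypt epithelium. It was at 15.3, 17.4 and 14.2 scaled TPM in Ctrl 1, 2 and 3, then 9.70 and 16.9 in KO 1 and 2, and 18.0, 15.4, 11.8, 11.0 and 16.8 across OE 1 to 5. The groups overlapped in every comparison. The log2 difference in OE against KO was 0.15 (-0.48 to 0.78), and -0.22 without KO 1. Direction in the other comparisons depended on the scale: in TPM as deposited it was 0.21 in KO against Ctrl and 0.35 in OE against Ctrl, beside all-gene medians of 0.38 and 0.36, against -0.26 (-0.95 to 0.43) and -0.11 (-0.66 to 0.44) in scaled values.

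Tcf7 (ENSMUSG00000000782, chromosome 11, 52252371 to 52283014) encodes TCF-1, best known from T cells and also made by intestinal epithelium. It was at 5.01, 2.17 and 2.43 scaled TPM in Ctrl 1, 2 and 3, then 4.24 and 3.49 in KO 1 and 2, and 9.62, 4.62, 5.87, 12.4 and 7.10 across OE 1 to 5. All OE libraries lay above both KO libraries and above Ctrl 2 and Ctrl 3, and Ctrl 1 lay above OE 2. The group mean was 3.20 ± 1.57 for Ctrl (SD, n = 3), 3.86 ± 0.531 for KO (SD, n = 2) and 7.92 ± 3.10 for OE (SD, n = 5). In OE against Ctrl the log2 difference was 1.08 (0.33 to 1.82), with an unadjusted limma p of 0.00888, a limma adjusted p of 0.755 and an exact permutation p of 0.0714. In OE against KO it was 0.81 (-0.04 to 1.66), with a limma adjusted p of 1 and an exact permutation p of 0.143. With library weights in limma the OE against Ctrl difference was 0.62, and without Ctrl 2 it was 0.90.

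Markers of immune cells were high in some of the same libraries. All 9 of 9 T cell markers were in the files, with up to 3 at 0 in a library, and they summed to 43.0 to 155 scaled TPM in Ctrl, 25.0 to 66.6 in KO and 78.1 to 327 in OE. The 6 of 6 B and plasma cell markers, of which up to 3 were at 0 in a Ctrl library, summed to 4.82 to 30.6 in Ctrl, 11.9 to 28.3 in KO and 21.7 to 189 in OE. OE 4, the highest for Tcf7, was the highest for the B and plasma cell markers. OE 2, the lowest OE library for Tcf7, was the lowest in OE for both lists. The T cell markers, however, were highest in OE 5 at 327 and OE 1 at 275, against 229 in OE 4. In Ctrl they were highest in Ctrl 2, the lowest for Tcf7, and lowest in Ctrl 1, the highest for Tcf7. Macrophage and dendritic cell markers summed to 51.2 to 85.9 in Ctrl, 151 to 249 in KO and 72.1 to 300 in OE. The part of these cells in the level of Tcf7 was not tested.

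Among the 4 TCF/LEF genes, Tcf7l2 held the largest share in every library but OE 4. Its share was 74.9%, 86.0% and 84.3% in Ctrl 1, 2 and 3, then 67.0% and 82.3% in KO 1 and 2, and 64.4%, 75.4%, 65.9%, 44.0% and 68.7% across OE 1 to 5. The share of Tcf7 was 24.5%, 10.7% and 14.5% in Ctrl 1, 2 and 3, then 29.3% and 17.0% in KO 1 and 2, and 34.4%, 22.7%, 32.8%, 49.5% and 29.1% across OE 1 to 5. Of the OE libraries only OE 2, and of the KO libraries only KO 2, lay in the Ctrl range, for both genes. Between OE and Ctrl the share of Tcf7 was 17.1 points higher, with an exact permutation p of 0.0536, and that of Tcf7l2 18.1 points lower, with an exact permutation p of 0.0714, both 0.286 after adjustment. These 2 shares are parts of the same sum and are not independent of each other.

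**Figure D3:**
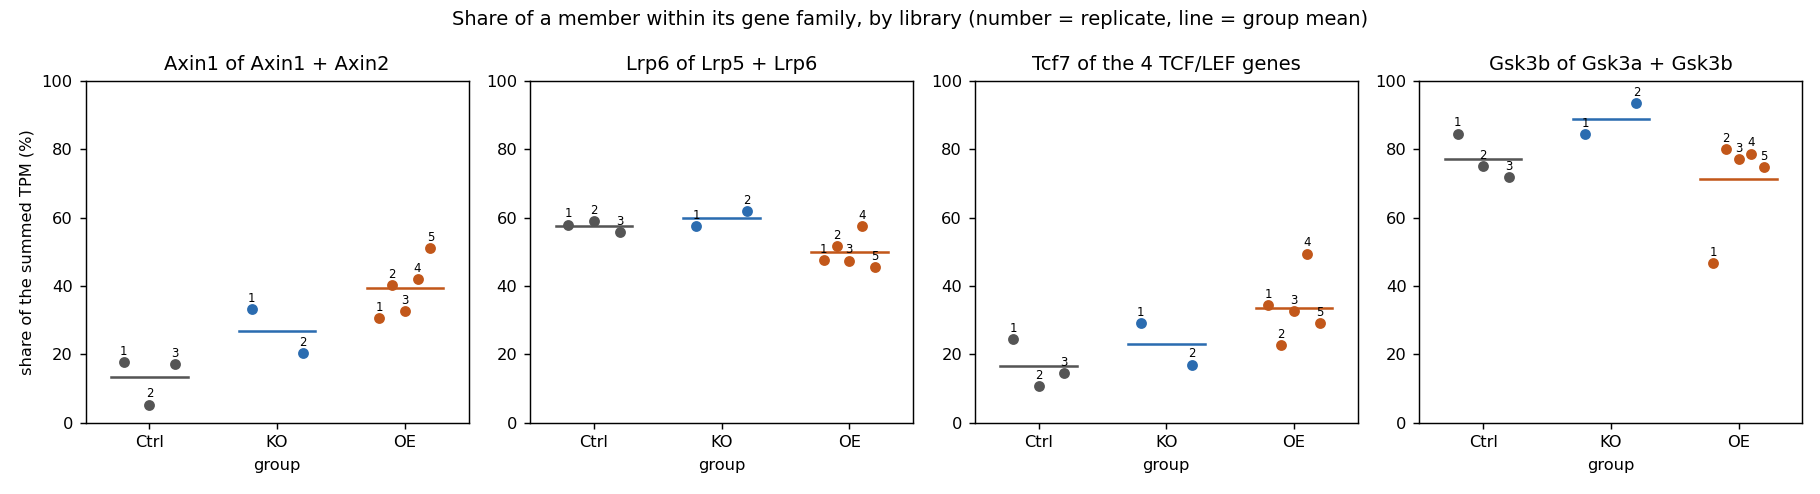
Share of Axin1, Lrp6, Tcf7 and Gsk3b in the summed TPM of their gene family (percent, axes from 0 to 100) by library; points are libraries with their replicate number and lines group means. OE lies above Ctrl for Axin1 without overlap and below KO for Lrp6, and the library labelled OE 1 stands alone at 46.7% for Gsk3b.

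Counted over the 10 genes, libraries of KO and Ctrl did not overlap for 2, Fzd5 and Fzd7, both higher in KO, where 9.09% of all genes tested lay wholly higher, 7.27% wholly lower and 16.4% in either direction. In OE against Ctrl this held for Axin1 alone, against 3.73% of all genes in either direction. In OE against KO it held for 3, Tcf7 higher and Lrp6 and Fzd5 lower. Over all genes it held for 4.04% higher, 4.43% lower and 8.47% in either direction. The separation of Fzd5 did not stand in TPM rescaled after mitochondrial transcripts were removed. The median log2 difference of the 10 genes was 0.34 in KO against Ctrl, -0.09 in OE against Ctrl and -0.10 in OE against KO, beside 0.038, 0.021 and -0.00062 over all genes tested. Without Ctrl 2 the first 2 were 0.16 and -0.03. With 1 library left out at a time they ran from 0.15, without Ctrl 3, to 0.46, without Ctrl 1, in KO against Ctrl. In OE against Ctrl they ran from -0.12, without OE 2, to 0.08, without OE 5, and in OE against KO from -0.22, without OE 3, to -0.04, without the library labelled OE 1. KO against Ctrl was positive for 8 of the 10 and OE against Ctrl for 4. These comparisons share libraries, so their values are given side by side without a test between them.

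**Figure D4:**
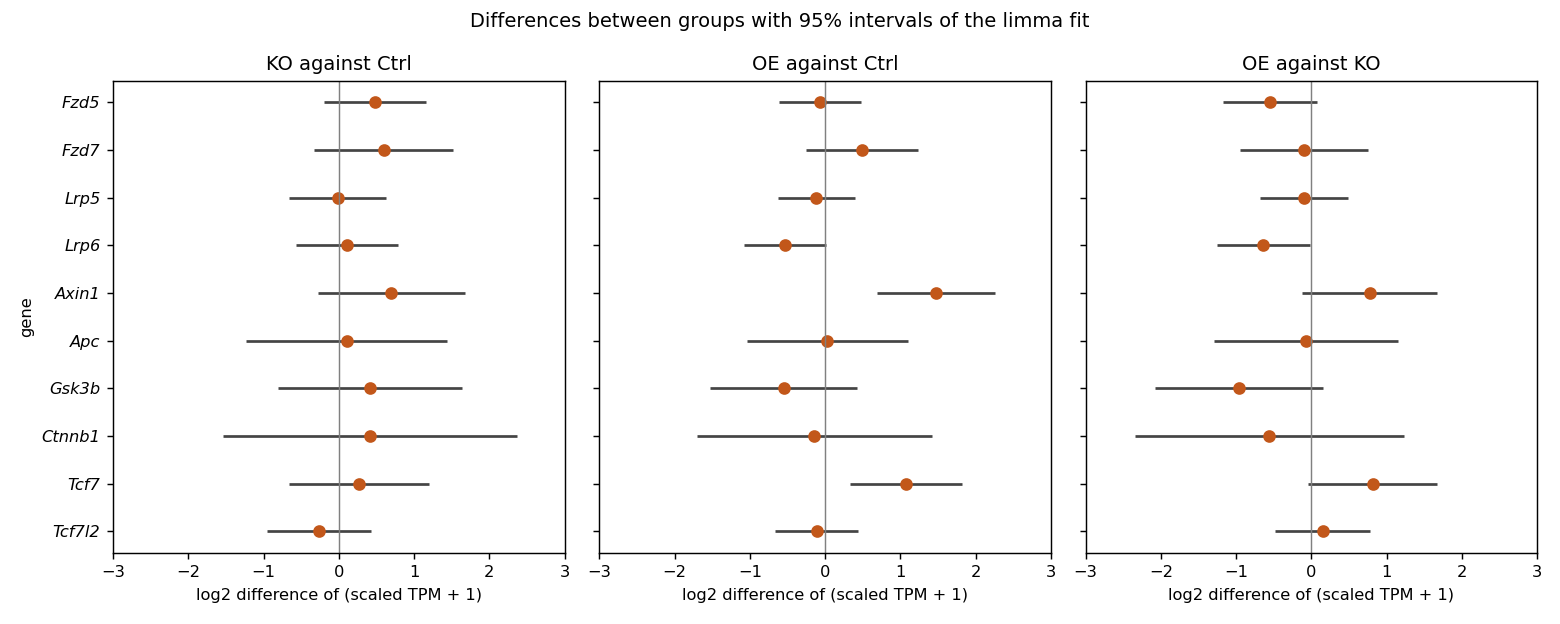
Log2 difference of (scaled TPM + 1) for each of the 10 Wnt genes in the 3 comparisons; points are estimates and lines 95% intervals of the limma fit over all libraries. In OE against Ctrl the intervals of Axin1 and Tcf7 lie above 0, and in OE against KO that of Lrp6 lies below 0; the other intervals include 0, and no adjusted p passed 0.05.

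The wider pathway was read from gene lists, in which 0 genes passed the limma threshold in any comparison. The lists include the 10 members, so their counts and medians are not independent of the values above. Fzd5, Fzd7, Lrp5 and Lrp6 are among the receptors, and Tcf7 and Tcf7l2 among the nuclear partners. Axin1, Apc, Gsk3b and Ctnnb1 are in the list for signal transduction and the destruction complex. Of 19 Wnt ligand genes, 0 passed the filter on low values. Of 5 genes for ligand secretion 4 passed it, among them Vps35, a retromer gene, at 59.3 scaled TPM over the 10 libraries and Wls, the Wnt carrier, at 5.12. Of 16 receptor genes 6 passed it, of 9 genes of the R-spondin axis 4, and of 15 extracellular inhibitors 2. Lgr4, an R-spondin receptor, was at 31.3 and Rnf43, a ligase that removes Frizzled receptors, at 20.4. Among 20 genes for signal transduction and the destruction complex 19 were tested, led by the casein kinase gene Csnk1a1 at 165. Their median log2 difference was 0.09 in KO against Ctrl, -0.12 in OE against Ctrl and -0.07 in OE against KO, with 1, 3 and 1 genes at an unadjusted limma p under 0.05. For 16 tested nuclear partners the medians were 0.07, 0.09 and 0.02.

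Target genes of the pathway in crypts, a list of 16 of which 12 were tested, had median log2 differences of 0.49 in KO against Ctrl, 0.44 in OE against Ctrl and -0.09 in OE against KO. Of the 12, 9 were positive in KO against Ctrl, 9 in OE against Ctrl and 5 in OE against KO, and 1, 0 and 0 had an unadjusted limma p under 0.05. Without Ctrl 2 the medians against Ctrl were -0.15 and -0.20. The most abundant of them were Ccnd1, a cyclin gene, at 34.9 scaled TPM and Slc12a2, an ion transporter gene of the lower crypt, at 29.4.

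Levels of the 10 genes across the 10 libraries were then set against each other, as a description of libraries that share groups, scaling and composition. The closest pair depended on the measure. In scaled TPM over all 10 libraries it was Ctnnb1 and Gsk3b, with r = 0.76, and 0.75 without Ctrl 2 and 0.79 on deviations from group means: KO 2 and OE 3 were high for both and the library labelled OE 1 and OE 5 low for both. Lrp6 and Fzd5 gave 0.74, 0.78 and 0.80, with the library labelled OE 1 and OE 5 the lowest for both genes. Another scale was TPM rescaled after mitochondrial transcripts were removed, and not divided by the library factors. On it Lrp6 and Fzd5 were the closest of these pairs at r = 0.85, against 0.79 for Ctnnb1 and Gsk3b. Without Ctrl 2 the closest pair was Gsk3b and Fzd5 at 0.90, against 0.72 with it. Axin1 and Fzd7 also gave 0.74, then 0.33 without Ctrl 2, the library lowest for both. On deviations from group means, which still include Ctrl 2, they gave 0.80 and were the closest pair. Lrp6 and Fzd5 and then Apc and Lrp6 followed, also at 0.80. Axin1 and Tcf7 gave 0.67, and 0.07 on deviations from group means. For Ctnnb1, 1.46% of the 7332 protein-coding genes were more like it than Gsk3b was.

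**Figure D5:**
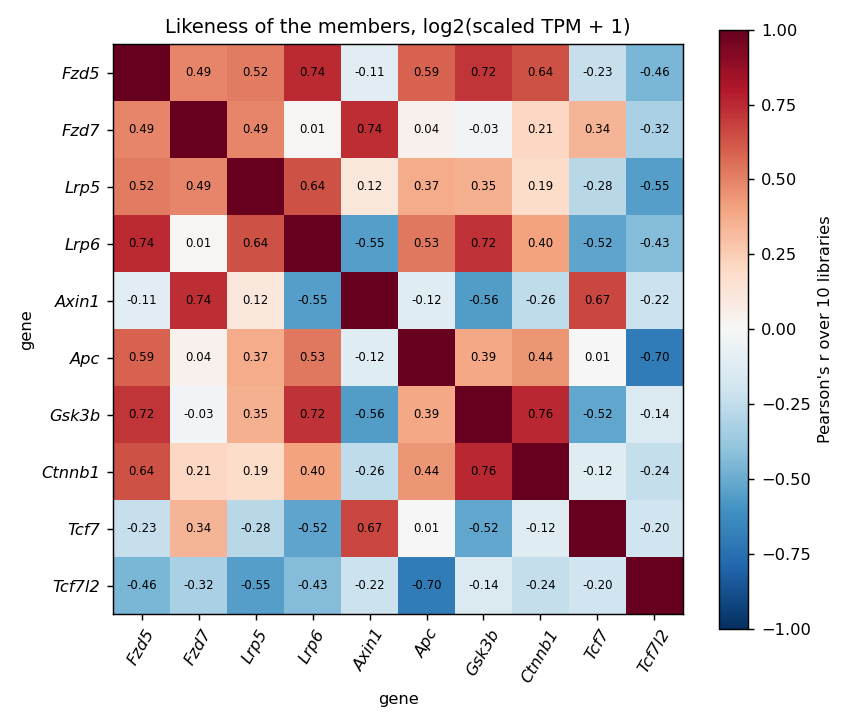
Pearson's r of log2(scaled TPM + 1) over the 10 libraries for every pair of the 10 Wnt genes (red positive, blue negative, colour scale from -1 to 1). Ctnnb1 and Gsk3b stand at 0.76 and Lrp6 and Fzd5 at 0.74, whereas the row of Tcf7l2 holds negative values throughout.

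In scaled TPM the highest r of Tcf7l2 with another of the 10 was -0.14, with Gsk3b, and its lowest -0.70, with Apc. In TPM rescaled after mitochondrial transcripts were removed, and not divided by the library factors, its highest was 0.03, with Fzd7. On that scale its r with Apc was -0.40. Over the 7332 protein-coding genes, the 3 most like it were Edn3 at r = 0.94, Tuba1c at 0.89 and Mob3c at 0.89. In the TPM rescaled without mitochondrial transcripts, these were 0.75, 0.80 and 0.66. For Ctnnb1 the 3 most alike genes were Dhx30 at 0.97, Dhtkd1 at 0.93 and Slc37a3 at 0.92.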

How the data were processed

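Ileal crypt RNA of 3 Ctrl, 2 KO and 5 OE libraries was measured. The deposited values are TPM, per the file headers of 9 libraries; the header of Ctrl 1 names no unit, which was taken from the other libraries and its values. The submitters' processing notes name TopHat, Cufflinks and mm10 with no version; the step that made TPM and its gene annotation were not given in the sources used here. Symbols were taken by ID from GENCODE M21 (GRCm38, also called mm10). TPM keep no read numbers, so depth is unknown; deposited TPM summed to 979539 to 994373 per library.

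TPM were divided by median-ratio factors over 11146 genes above 0 in every library. The filter kept genes that reached 1 TPM, as deposited, in 2 or more libraries. Tests used limma 3.58.1 (R 4.3.3) with an intensity trend on log2(scaled TPM + 1), a pseudocount of 1 that understates changes of low genes, with 3 group means over all 10 libraries and Benjamini-Hochberg adjustment over 13056 genes at 0.05. Groups were taken from the genotype labels. Exact permutation tests were two-sided, over all assignments of the libraries to the 2 groups (Python 3.11.15), with a smallest possible p of 0.1 between KO and Ctrl, 0.0179 between OE and Ctrl, and 0.0476 between OE and KO. Family shares used deposited TPM. The fit was tested on simulated data, drawn independently for each gene and library from a normal distribution. These held no library that stands apart as Ctrl 2 does, so that test cannot speak for the fit with such a library. Members and lists were chosen with earlier results of these data known. Genes named were all 10 members, their family relatives, Stat5a and Stat5b, up to 4 genes per list by mean level, and the 3 genes most like Tcf7l2 and Ctnnb1 by r. Alternatives were other scalings, pseudocounts of 0.1 and 5, no filter or 5 TPM, fits to the 2 groups compared, limma with robust variances or library weights, a replicate block and leaving out libraries. Leaving out Ctrl 2 with OE 1, or the libraries low in Y-linked transcripts, the likeness without Ctrl 2 or on deviations from group means, and the CCAAT search were added after the data were seen.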

Additional observations from a re-analysis of the deposited data

Results flagged for a closer look

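In 18 sets of 5 OE values, 2 held a library far from the other 4 by Dixon's criterion; chance flags about 1 in 20 groups. The share of Gsk3b in the sum of Gsk3a and Gsk3b was 46.7% in the library labelled OE 1, and its gap to the nearest OE library was 0.84 of the range of the group. Fzd7 was at 3.20 scaled TPM in OE 3, with a gap of 0.76 of the range.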

How the results depend on the processing

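No member passed the limma threshold under any alternative, and the limma adjusted p of the members was 0.399 or more in all of them. Over all genes, without the filter on low values 24 genes were called higher in KO against Ctrl and 25 lower in OE against KO; with only the groups compared in the fit, 1 was called higher in KO against Ctrl and 1 higher in OE against Ctrl. Without the 3 libraries low in Y-linked transcripts, 1 was called higher in OE against Ctrl and 1 higher in OE against KO, and without Ctrl 2 and the library labelled OE 1, 1 lower in OE against KO. Leaving out 1 library at a time gave 0 to 2 lower in KO against Ctrl, 0 to 1 higher in OE against Ctrl, and 0 to 2 higher and 0 to 1 lower in OE against KO.

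The replicate numbers of the titles are not said to mark pairs. Deviations from group means of same-numbered libraries correlated at -0.18 to 0.063. Of the 8 libraries with a same-numbered library in another group, 0 correlated best with it. Since KO has 2 libraries, the deviations of KO 1 and KO 2 mirror each other. These values cannot tell whether the numbers mark pairs. With these numbers as a replicate block, 2 genes were called higher and 1 lower in OE against Ctrl, and the log2 difference was 0.12 for Lrp5 in KO against Ctrl and 0.0096 for Fzd5 in OE against Ctrl.

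Directions that turned were these, as log2 differences. As deposited, KO against Ctrl was 0.21 for Tcf7l2 and 0.42 for Lrp5, and OE against Ctrl 0.35 for Tcf7l2, 0.36 for Ctnnb1, 0.30 for Lrp5 and 0.40 for Fzd5; on that scale the median of all genes was 0.38 and 0.36. KO against Ctrl of Lrp5 was 0.0061 with quantile normalization and 0.074 in TPM rescaled without mitochondrial transcripts. With library weights KO against Ctrl was -0.088 for Tcf7 and -0.0096 for Lrp6. Without the libraries low in Y-linked transcripts it was 0.086 for Lrp5, and OE against Ctrl was 0.029 for Tcf7l2 and -0.39 for Apc. Without Ctrl 2 and the library labelled OE 1, KO against Ctrl was -0.022 for Lrp6, OE against Ctrl 0.36 for Ctnnb1, and OE against KO 0.14 for Apc and 0.000104 for Lrp5. When 1 library at a time was left out, KO against Ctrl ran from -0.63 to 0.11 for Tcf7l2, -0.17 to 0.38 for Apc, -0.47 to 1.30 for Ctnnb1, -0.14 to 0.96 for Gsk3b, -0.18 to 0.11 for Lrp5 and -0.022 to 0.18 for Lrp6. OE against Ctrl ran from -0.22 to 0.33 for Apc, -0.63 to 0.13 for Ctnnb1 and -0.19 to 0.078 for Fzd5, and OE against KO from -0.22 to 0.52 for Tcf7l2, -0.35 to 0.22 for Apc, -1.45 to 0.33 for Ctnnb1 and -0.22 to 0.019 for Lrp5. For Axin1 in OE against Ctrl it ran from 1.05 to 1.72, and the value was 0.85 with a pseudocount of 5.

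In shares, leaving out 1 library gave -14.8 to 0.589 points for Tcf7l2 in KO against Ctrl, and -8.39 to 0.502 for Gsk3b and -0.373 to 3.79 for Fzd5 in OE against Ctrl. As a log2 difference between the member and its main relative, OE against Ctrl was -0.11 for Fzd5 and KO against Ctrl -0.35 for Fzd7. The causes of these changes were not tested. The deposited TPM hold no depth, so the precision of low genes such as Fzd7 and Axin1 in Ctrl 2 is unknown.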
